A study of Rattus norvegicus with 6 samples.

Results

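Glucocorticoid and fasting response genes were followed in rat back skin after afatinib, using 6 genes of the 33692 features in the count tables: Fkbp5, Tsc22d3, Sgk1, Zbtb16, Pdk4 and Cdkn1a. They were taken by their Ensembl identifiers, which had been paired with these symbols beforehand. No threshold on measured values was used, but the set was proposed with earlier results of these data known. The count tables hold no symbols, so the names themselves could not be checked in them. All 6 genes passed the filter on low counts.

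Afatinib binds the epidermal growth factor receptor and its ErbB relatives covalently and blocks their kinase activity, and patients on such drugs often develop a rash. The series compared back skin of vehicle-treated rats with back skin of afatinib-treated rats by RNA sequencing, with 3 libraries in each group. The sources used here do not give strain, sex, age, dose or length of treatment, and no other allele or agent is named for either group. Whole skin was used, so that fewer cells of a type and less RNA per cell cannot be told apart.

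Glucocorticoids act through a receptor that stays in the cytoplasm with chaperones until hormone binds it, then enters the nucleus and switches genes on or off. Fkbp5, Tsc22d3, Sgk1 and Zbtb16 are classical genes that this receptor induces, and glucocorticoids are widely used on skin to damp inflammation. Fasting raises glucocorticoids and lowers insulin, and with little insulin signalling the FoxO transcription factors enter the nucleus. Pdk4 is a textbook fasting gene that both routes can induce, and Cdkn1a is a cell cycle inhibitor on which p53, FoxO factors and glucocorticoids can act.

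The libraries held between 15304166 and 18494281 counts. Afatinib replicate 3 stood apart from its group before any of the genes was considered. Its mean correlation of log2 levels across features was 0.926 with its own group and 0.954 with the vehicle libraries, while for each of the other 5 libraries the own group was the closer one. Its score on the first principal component (60.2% of the variance) was -17.7, among vehicle scores of -86.6 to -12.5, against 89.1 and 55.4 for afatinib replicates 1 and 2. Whether its label is right cannot be checked from the files, so every difference over all 6 libraries takes that label as given. Fold changes, calls and the comparisons with all features are also given without this library. Levels are CPM, the counts of a gene scaled to a common library total, after TMM scaling, which corrects library totals for a few very abundant features.

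The 6 genes did not share a direction. Fkbp5, Tsc22d3 and Sgk1 had higher levels in every afatinib library than in any vehicle library, at 1.60-fold, 1.56-fold and 1.67-fold in the fit. Groups lay apart in that direction for 12.9% of all features, and in either direction for 26.2%. Pdk4, Zbtb16 and Cdkn1a had lower fitted levels after afatinib, at 0.875-fold, 0.792-fold and 0.715-fold, with groups that overlapped. With all 6 libraries, edgeR's quasi-likelihood test called none of the 6 at an adjusted p under 0.05, and 0 of the 15497 tested features (0%). At an unadjusted p under 0.05 there were 3 of the 6 genes, Fkbp5, Tsc22d3 and Sgk1, all with higher levels after afatinib. Over all features, 10.3% met that limit in the same direction and 19.5% in either. Without afatinib replicate 3 there were 2 of the 6, Fkbp5 and Sgk1, higher after afatinib, beside 16.8% of all features in that direction. The limit also depended on other libraries. With 1 library left out, Tsc22d3 met it only without afatinib replicate 1 (edgeR unadjusted p = 0.0284). Fkbp5 missed it without afatinib replicate 2 (edgeR unadjusted p = 0.0680), while Sgk1 met it each time. DESeq2 called 0 of the 6 and 6.78% of its 15220 features, and limma voom called 0 of the 6 and 0% of all features.

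**Figure D1:**
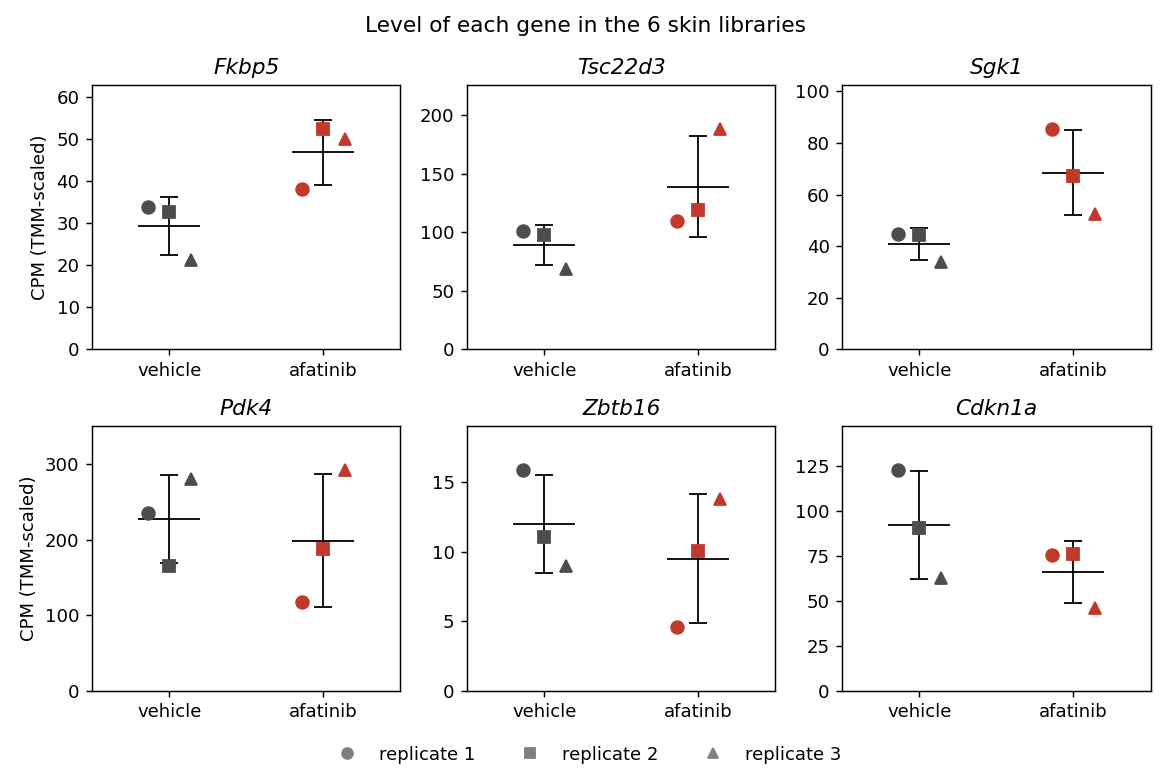
Level of each gene in CPM (y axis, TMM-scaled, from 0) in the vehicle and afatinib libraries, with 1 symbol for each replicate number; horizontal lines and bars are the mean and SD of 3 libraries. Fkbp5, Tsc22d3 and Sgk1 lie higher in all afatinib than in all vehicle libraries, while the groups overlap for Pdk4, Zbtb16 and Cdkn1a.

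Fkbp5 (ENSRNOG00000022523) encodes a co-chaperone of the glucocorticoid receptor that lowers its affinity for hormone, and so forms a short negative feedback loop. Its level was 33.8, 32.6 and 21.3 CPM in vehicle replicates 1, 2 and 3 and 38.1, 52.4 and 50.0 CPM in afatinib replicates 1, 2 and 3. The groups did not overlap, but afatinib replicate 1 lay only slightly above vehicle replicate 1, and their 95% Poisson intervals, which cover counting error only, met (35.2 to 41.1 and 31.2 to 36.6 CPM). Vehicle libraries averaged 29.3 ± 6.88 CPM and afatinib libraries 46.8 ± 7.66 CPM (SD, n = 3 each). The log2 fold change was 0.68 (edgeR's quasi-likelihood test, unadjusted p = 0.0195, Benjamini-Hochberg adjusted p = 0.208). Limma voom gave 0.70 with a standard error of 0.22 and a 95% interval of 0.16 to 1.24. Without afatinib replicate 3 the log2 fold change was 0.62 (edgeR adjusted p = 0.149), and without vehicle replicate 3 it was 0.50 (edgeR adjusted p = 0.321).

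Tsc22d3 (ENSRNOG00000056135) encodes the glucocorticoid-induced leucine zipper protein (GILZ), which binds and restrains inflammatory transcription factors and carries part of the anti-inflammatory action of the hormone. Its level was 100.7, 97.5 and 69.0 CPM in vehicle replicates 1, 2 and 3 and 109.5, 119.3 and 188.1 CPM in afatinib replicates 1, 2 and 3. Afatinib replicate 3 was far above the other 5 libraries, and afatinib replicates 1 and 2 lay a little above the vehicle range. Vehicle libraries averaged 89.1 ± 17.5 CPM and afatinib libraries 138.9 ± 42.8 CPM (SD, n = 3 each). In the fit its log2 fold change was 0.64 (edgeR's quasi-likelihood test, unadjusted p = 0.0457, adjusted p = 0.249). The limma voom interval ran from 0.01 to 1.24. Without afatinib replicate 3 the log2 fold change was 0.36 (edgeR adjusted p = 0.244), so that 1 library moved this value by more than 1.5 times. Without vehicle replicate 3 it was 0.49 (edgeR adjusted p = 0.399).

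Promoter windows were searched for motifs of the glucocorticoid receptor, FoxO factors and PPAR, a family of fatty acid sensors, some of which are active in fasting. RefSeq windows of 300 bases (250 before and 50 after a start site, build GRCr8) were at hand for 5 of the 6 genes, with 9 start sites in all, and not for Zbtb16. The glucocorticoid response element was searched on both strands as the full palindromic site, found in 0.0149% of all 33469 windows, and as its single arm AGAACA, found in 20.7%. The arm is part of the full site. Neither was found in the 9 windows, which says only that these letters are not in them. The PPAR site of the DR1 type, found in 0.0538% of all windows, was not found either. The FoxO site GTAAACA, found in 3.78% of all windows, occurred once, at an inner start site of Tsc22d3, on the reverse strand and starting 162 bases before the start site. The stretch around it is chrX:109010168-109010218 (GRCr8, minus strand), shown with the match in capitals, since it is the only match among these 4 motifs in the 9 windows.
Tsc22d3 inner start site: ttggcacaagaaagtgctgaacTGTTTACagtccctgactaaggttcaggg

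Sgk1 (ENSRNOG00000011815) encodes a serine/threonine kinase of the AGC family that is induced by serum and by glucocorticoids, acts downstream of PI3-kinase, and is best known for raising sodium transport in epithelia. Its level was 44.8, 44.2 and 33.8 CPM in vehicle replicates 1, 2 and 3 and 85.4, 67.3 and 52.5 CPM in afatinib replicates 1, 2 and 3. The groups did not overlap, and afatinib replicate 3 was the closest of its group to the vehicle libraries. Vehicle libraries averaged 40.9 ± 6.18 CPM and afatinib libraries 68.4 ± 16.4 CPM (SD, n = 3 each). The log2 fold change of 0.74 was the largest of the 6 (edgeR's quasi-likelihood test, unadjusted p = 0.0113, adjusted p = 0.198). The limma voom interval ran from 0.21 to 1.24, and DESeq2 gave an adjusted p of 0.0560.

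Sgk1 passed the test in both edgeR and DESeq2 when afatinib replicate 3 was left out. The log2 fold change was then 0.89 in edgeR (adjusted p = 0.0403) and 0.91 in DESeq2 (adjusted p = 0.000738). In these fits 1 of the 6 genes was called, Sgk1. Called higher after afatinib were 5.18% of 16014 features in edgeR and 12.9% of 16338 in DESeq2. In either direction, 1627 of the 16014 and 4085 of the 16338 features were called. With each of the other 5 libraries left out in turn, edgeR's adjusted p lay between 0.321 and 0.457, and the log2 fold change between 0.55 and 0.81.

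Zbtb16 (ENSRNOG00000029980) encodes the zinc finger repressor PLZF, a strongly glucocorticoid-induced gene in many cell types. Its level was 15.9, 11.1 and 9.01 CPM in vehicle replicates 1, 2 and 3 and 4.60, 10.1 and 13.8 CPM in afatinib replicates 1, 2 and 3. It had the lowest counts of the 6 genes, from 78 to 283. Afatinib replicate 1 was the lowest library, while afatinib replicates 2 and 3 lay within the vehicle range. Vehicle libraries averaged 12.0 ± 3.52 CPM and afatinib libraries 9.51 ± 4.64 CPM (SD, n = 3 each). Its log2 fold change was -0.34 (edgeR's quasi-likelihood test, adjusted p = 0.661), with a limma voom interval of -1.47 to 0.57. Without afatinib replicate 1 it was -0.0042, and without afatinib replicate 3 it was -0.71 (edgeR adjusted p = 0.283). The design did not resolve a difference in this gene.

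Pdk4 (ENSRNOG00000009565) encodes pyruvate dehydrogenase kinase 4, which phosphorylates and switches off the pyruvate dehydrogenase complex and so spares glucose when fatty acids are burned. Its level was 235.8, 165.5 and 280.7 CPM in vehicle replicates 1, 2 and 3 and 117.0, 187.6 and 292.1 CPM in afatinib replicates 1, 2 and 3. The lowest of all libraries was afatinib replicate 1. The highest was afatinib replicate 3 after TMM scaling, but with library totals alone it was vehicle replicate 3 (280.8 CPM, against 267.1 CPM in afatinib replicate 3). Vehicle libraries averaged 227.4 ± 58.1 CPM and afatinib libraries 198.9 ± 88.1 CPM (SD, n = 3 each). Its log2 fold change was -0.19 (edgeR's quasi-likelihood test, adjusted p = 0.774), with a limma voom interval of -1.14 to 0.65, which takes in differences of more than 1.5-fold either way. The sign was not settled: without afatinib replicate 1 the log2 fold change was 0.08, without vehicle replicate 3 it was -0.0074, and without afatinib replicate 3 it was -0.58 (edgeR adjusted p = 0.931, 0.994 and 0.236).

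Cdkn1a (ENSRNOG00000000521) encodes p21, an inhibitor of cyclin-dependent kinases that halts the cell cycle and accompanies the exit of keratinocytes from division. Its level was 122.8, 90.9 and 62.9 CPM in vehicle replicates 1, 2 and 3 and 75.4, 76.3 and 46.0 CPM in afatinib replicates 1, 2 and 3. The lowest value was that of afatinib replicate 3, and afatinib replicates 1 and 2 lay between vehicle replicates 2 and 3. Vehicle libraries averaged 92.2 ± 30.0 CPM and afatinib libraries 65.9 ± 17.3 CPM (SD, n = 3 each). Fitted over all libraries, the log2 fold change was -0.48 (edgeR's quasi-likelihood test, adjusted p = 0.386), with a limma voom interval of -1.21 to 0.27. It was -0.29 without afatinib replicate 3 and -0.23 without vehicle replicate 1 (edgeR adjusted p = 0.513 and 0.723), both smaller by more than 1.5 times.

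Cdkn1a is the textbook target of p53. Only a single arm of the p53 site was searched for, not the full site. The search was added after the promoter sequences had been seen. It found 1 match in the 9 windows, against 7.98% of all windows with at least 1 match. The match starts 201 bases before the start site of Cdkn1a, in chr20:7150709-7150762 (GRCr8, plus strand), shown with the match in capitals. The motif reads the same on both strands, and a match is a description of the letters, not of binding.
Cdkn1a start site: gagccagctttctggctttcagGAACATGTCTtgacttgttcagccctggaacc

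**Figure D2:**
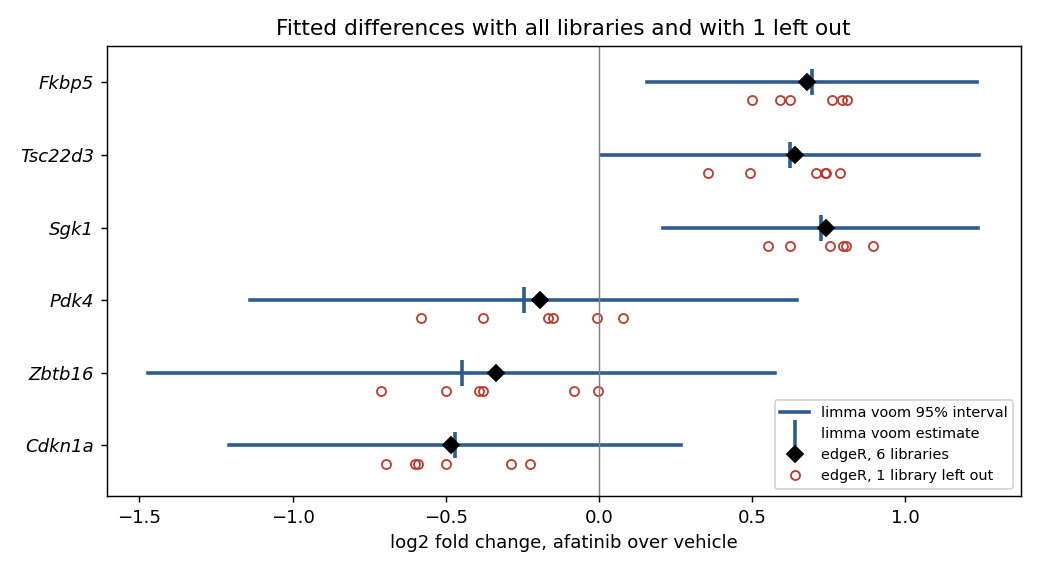
Log2 fold change of each gene, afatinib over vehicle (x axis): edgeR estimates with all 6 libraries (diamonds) and with 1 library left out (open circles), and limma voom estimates with 95% intervals (ticks and lines). The estimates for Fkbp5, Tsc22d3 and Sgk1 stay above 0, from 0.36 to 0.89, while those of Pdk4 run from -0.58 to 0.08 across 0.

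Among all tested features, the 3 genes with higher levels lay toward the upper end without being extreme. Of the 15497 log2 fold changes, 88.3% were below that of Fkbp5, 87.4% below that of Tsc22d3 and 89.5% below that of Sgk1. Below the estimates for Cdkn1a, Zbtb16 and Pdk4 lay 16.9%, 24.7% and 34.3% of features. The median of the 6 genes was 0.22, beside -0.0031 over all features. This median falls in the gap between Pdk4 (-0.19) and Tsc22d3 (0.64), where none of the 6 genes lies. Groups did not overlap for 3 of the 6 genes, all higher after afatinib, and for 12.9% of all features in that direction (26.2% in either). Without afatinib replicate 3 the same 3 genes were free of overlap, beside 27.7% of features in that direction and 54.9% in either, shares that are higher in part because fewer libraries were compared. The percentages of features below were then 83.0% for Fkbp5, 73.4% for Tsc22d3 and 88.4% for Sgk1. The median of the 6 genes, again in the gap between the higher and the lower genes, was then 0.03, beside -0.02 over all features. With all 6 libraries, the same 3 genes were free of overlap under RLE scaling, upper quartile scaling and library totals alone.

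**Figure D3:**
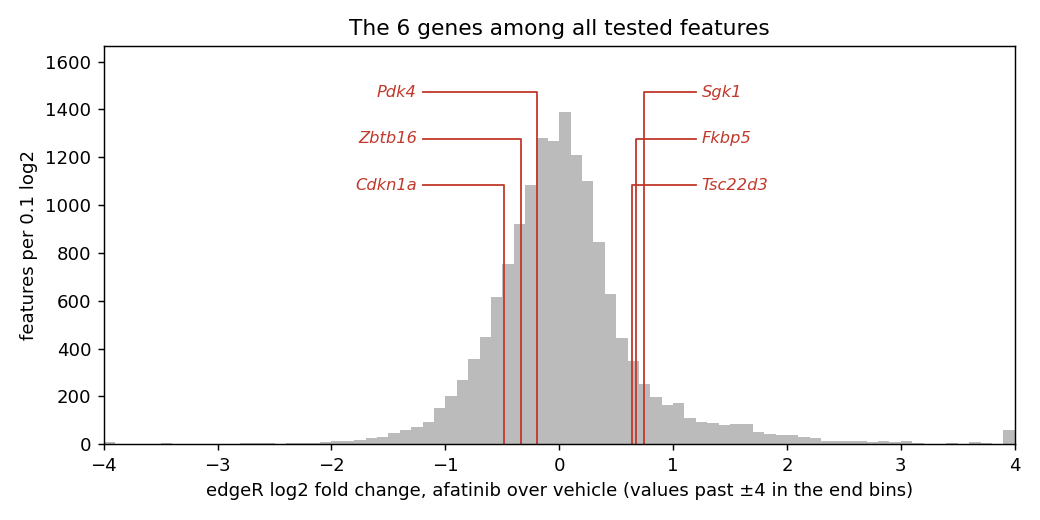
Number of tested features (y axis) in bins of 0.1 of the edgeR log2 fold change, afatinib over vehicle (x axis), with the 6 genes marked by red lines. Sgk1, Fkbp5 and Tsc22d3 stand on the upper shoulder at 0.74, 0.68 and 0.64, and Cdkn1a, Zbtb16 and Pdk4 at -0.48, -0.34 and -0.19.

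All 6 genes varied more within a group than the median feature, Sgk1 and Fkbp5 only slightly. Of all features, 51.0% had a smaller within-group SD than Sgk1, 53.9% than Fkbp5 and 61.4% than Tsc22d3. The shares were 70.4% for Cdkn1a, 77.2% for Pdk4 and 82.6% for Zbtb16. The within-group SD of log2 CPM was 0.30 for Sgk1, 0.31 for Fkbp5, 0.37 for Tsc22d3, 0.45 for Cdkn1a, 0.54 for Pdk4 and 0.64 for Zbtb16, beside a median of 0.29. Without afatinib replicate 3 this held for 5 of the 6, as the SD of Sgk1 was 0.23, beside a median of 0.24. Counting error was small beside this. For Zbtb16, the gene with the fewest counts, the lowest count of 78 gives a counting error of 11.3%, whereas the spread between libraries was 29.3% of the mean in vehicle and 48.8% in afatinib. For Pdk4 the largest such counting error was 2.25%, beside spreads of 25.5% and 44.3%.

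Several of the genes had their extremes in the same libraries. Among vehicle libraries, replicate 3 was the lowest for 5 of the 6 genes, beside 34.9% of all features, and Pdk4, which was highest there, was the exception. Among afatinib libraries, Pdk4, Zbtb16 and Tsc22d3 were lowest in replicate 1 and highest in replicate 3, whereas Sgk1 was highest in replicate 1 and lowest in replicate 3. Afatinib replicate 3 lay above all vehicle libraries for 4 of the 6 genes (Fkbp5, Tsc22d3, Sgk1 and Pdk4) and below all of them for Cdkn1a. With library totals alone it lay above them for 3 of the 6, without Pdk4. After TMM scaling, afatinib replicate 3 lay above all vehicle libraries for 27.1% of all features and below all of them for 27.3%. The share of counts in the 10 most abundant features also ran from 10.6% in afatinib replicate 1 through 13.8% to 20.6% in replicate 3. In vehicle replicates 1, 2 and 3 it was 18.3%, 18.5% and 16.2%. The part of this share in these orders was not tested.

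**Figure D4:**
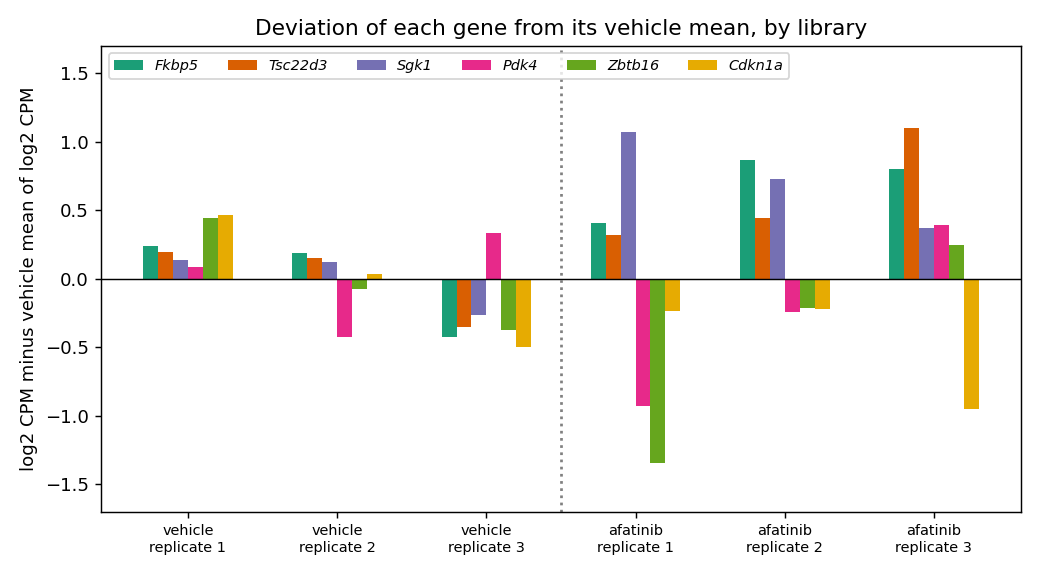
Log2 CPM of each gene minus the mean log2 CPM of its vehicle libraries (y axis) in each of the 6 libraries (x axis), with 1 colour for each gene. Afatinib replicate 1 combines the highest Sgk1 (1.07) with the lowest Zbtb16 (-1.34) and Pdk4 (-0.92), and afatinib replicate 3 the highest Tsc22d3 (1.10) with the lowest Cdkn1a (-0.95).

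Ratios between genes within a library do not depend on how libraries are scaled. The comparison was added after the values had been seen, and genes with higher fitted levels over genes with lower ones must tend to give higher ratios, so the ratios are a description with no test. The ratio of Sgk1 to Cdkn1a counts was 0.364, 0.486 and 0.537 in vehicle replicates 1, 2 and 3 and 1.13, 0.882 and 1.14 in afatinib replicates 1, 2 and 3. The afatinib libraries all lay well above the vehicle libraries, afatinib replicate 3 included, with a difference of 1.19 in mean log2 ratio. For Fkbp5 over Cdkn1a the ratios were 0.275, 0.359 and 0.339 in vehicle and 0.505, 0.686 and 1.09 in afatinib libraries. For Tsc22d3 over Cdkn1a they were 0.820, 1.07 and 1.10 in vehicle and 1.45, 1.56 and 4.09 in afatinib libraries, a difference of 1.09. For Sgk1 over Zbtb16 and over Pdk4 the groups overlapped. These ratios were 3.80 and 0.180 in afatinib replicate 3, within vehicle ranges of 2.82 to 3.98 and 0.120 to 0.267.

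The 4 receptor-induced genes, Fkbp5, Tsc22d3, Sgk1 and Zbtb16, were also set against one another. The ratio of Fkbp5 to Zbtb16 counts was 2.13, 2.94 and 2.37 in vehicle replicates 1, 2 and 3 and 8.27, 5.19 and 3.62 in afatinib replicates 1, 2 and 3. For Tsc22d3 over Zbtb16 the ratios were 6.35, 8.78 and 7.66 in vehicle and 23.8, 11.8 and 13.6 in afatinib libraries. In both pairs the afatinib libraries lay above the vehicle libraries, with differences of 1.13 and 1.05 in mean log2 ratio. The ratio of Tsc22d3 to Sgk1 lay between 2.04 and 2.25 in the vehicle libraries and was 1.28, 1.77 and 3.58 in afatinib replicates 1, 2 and 3, on both sides of the vehicle range. For Fkbp5 over Tsc22d3 the vehicle ratios lay between 0.309 and 0.336, and the afatinib ratios were 0.348, 0.439 and 0.266. The mean log2 ratios of these last pairs differed between the groups by -0.11 and 0.07. Of all 15 pairs, which share genes and are not independent, 6 had ratios without overlap between the groups, beside 24.3% of all pairs of tested features. Without afatinib replicate 3 there were 11 of 15, beside 53.9% of all pairs.

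**Figure D5:**
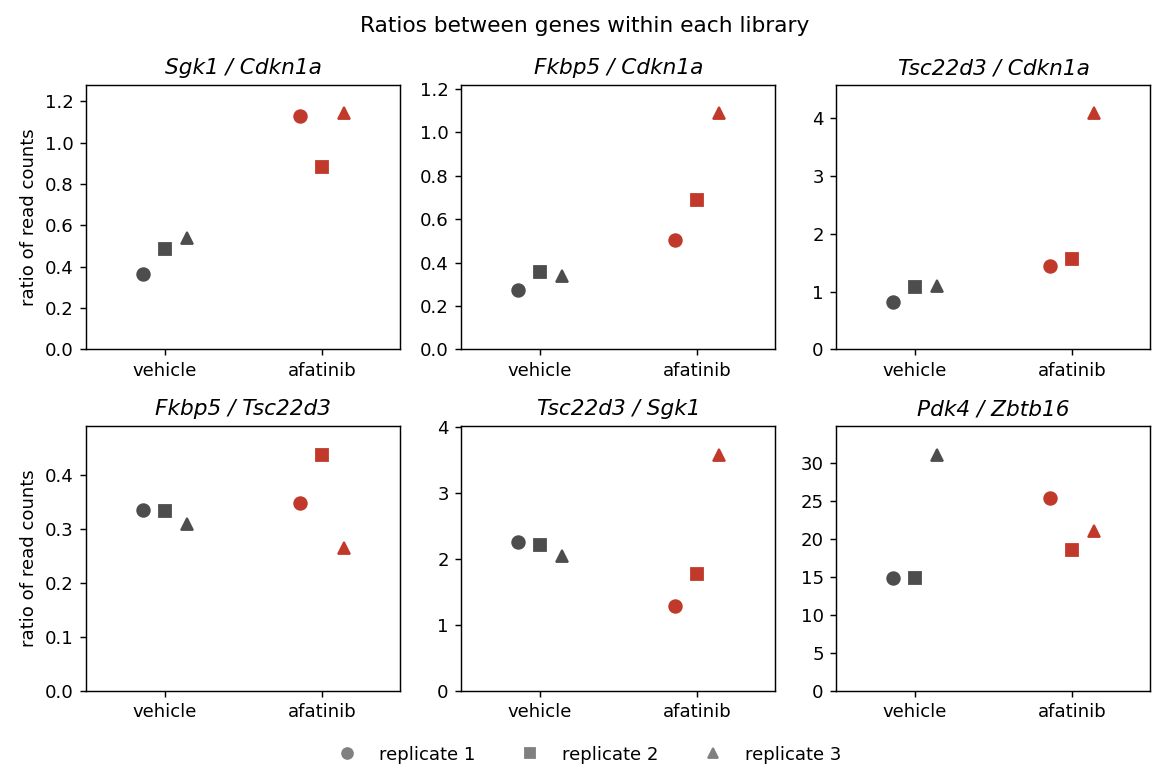
Ratio of read counts of 2 genes within a library (y axis, from 0) in vehicle and afatinib libraries, for 6 of the 15 pairs, with 1 symbol for each replicate number. The ratios to Cdkn1a in the upper row do not overlap between groups, and in the lower row the vehicle ratios of Fkbp5 to Tsc22d3 and of Tsc22d3 to Sgk1 lie close together while the afatinib ratios lie on both sides of them.

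The features whose pattern over the 6 libraries was most like the mean of the 6 genes (mean of standardised log2 levels) were sought among 11433 other features with Ensembl identifiers and at least 5 CPM. Of those with a higher fitted level after afatinib, ENSRNOG00000059880 and ENSRNOG00000021682 were closest, with Pearson correlations of 0.99 and 0.97 over 6 libraries. Of those with a lower fitted level, ENSRNOG00000013683 and ENSRNOG00000017428 were closest, with correlations of 0.85 and 0.82. Their log2 fold changes were 0.09, 0.12, -0.04 and -0.0014, with edgeR adjusted p-values between 0.682 and 0.997. These 4 features differed between the groups by less than the spread between libraries. The mean they were matched to joins 3 genes with higher and 3 with lower fitted levels. Group differences partly cancel in it, so features like it must tend to differ little between the groups. The 4 correlations were picked as the highest in each direction from 11433 features over only 6 libraries. Such a search yields high values by itself. The files do not pair these identifiers with names.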

How the data were processed

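Each library has its own deposited table of raw read counts per feature, given as whole numbers. HISAT2 2.0.5, featureCounts 1.5.0-p3 and DESeq2 1.16.1 are named in the submitters' processing notes. The sources used here do not give genome build, annotation, strand setting or the handling of multiply mapped reads, so reads shared with overlapping or near-identical genes cannot be told apart. The genes and lists were chosen with earlier results of these data known.

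Samples were grouped and numbered by their titles. The column headings number the afatinib libraries 3, 4 and 5, which are replicates 1, 2 and 3 here. Nothing in the labels ties a replicate to its own animal, and p-values reflect only how these samples spread, in part perhaps for technical reasons. Total counts ran from 15304166 to 18494281, so 3 counts correspond to between 0.166 and 0.195 CPM.

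Of 33692 features, 15497 passed filterByExpr in edgeR 4.0.16 (R 4.3.3). They were scaled by TMM and tested in edgeR (robust quasi-likelihood fit, group as sole factor), with Benjamini-Hochberg adjustment over all features. The log2 CPM used a prior count of 2, and mean log2 ratios an offset of 0.5 counts. Intervals and standard errors are from limma 3.58.1 (voom). The alternatives were RLE, upper quartile and no scaling, no filter, 5 CPM in 3 libraries, DESeq2 1.42.0, limma voom, a replicate block and each library left out. Descriptions without afatinib replicate 3, positions under library totals alone and the ratios were added after seeing the data.

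The rule for named genes took all 6 members and, for lack of symbols, 2 identifiers in each direction most like their mean. The RefSeq table (GRCr8, 47357 genes) matched 0 of 33692 features, so the 15 gene and marker lists that had been drawn up were not used, and markers of skin and of other cell types were not checked. Promoter windows were matched by symbol.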

Additional observations from a re-analysis of the deposited data

How the results depend on the processing

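The number of features called in edgeR was 0 with all 6 libraries and under every scaling and filter tried, the replicate block and limma voom, and 1032 in DESeq2. Leaving out 1 library moved it between 0 and 1627 in edgeR, highest without afatinib replicate 3. In DESeq2 it gave 399, 490 and 744 features without vehicle replicates 1, 2 and 3, and 336, 270 and 4085 without afatinib replicates 1, 2 and 3. The number of the 6 genes called was 0 except without afatinib replicate 3, so its range was 0 to 1 in both tools. That 1 gene was Sgk1, with a log2 fold change of 0.89 in edgeR and 0.91 in DESeq2, and between 0.55 and 0.91 over all fits with 1 library left out. Fkbp5, Tsc22d3 and Sgk1 kept their direction in each of these fits, as did Cdkn1a. Pdk4 turned to 0.0783 (edgeR) and 0.0879 (DESeq2) without afatinib replicate 1 and to 0.000899 in DESeq2 without vehicle replicate 3, within a range of -0.58 to 0.0879. Zbtb16 turned to 0.0051 in DESeq2 without afatinib replicate 1, within a range of -0.71 to 0.0051. The cause was not tested. Where 1 library of a group of 3 is left out, the spread rests on 5 libraries.

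Replicate numbers are shared only as numbers: deviations from the group means of libraries with the same number correlated by 0.20, -0.21 and -0.39. Some libraries correlated more with another number than with their own. With the replicate block 0 features and 0 of the 6 genes were called, and the log2 fold changes were 0.69 for Fkbp5, 0.61 for Tsc22d3, 0.72 for Sgk1, -0.25 for Pdk4, -0.41 for Zbtb16 and -0.47 for Cdkn1a. Counting error at the lowest count of a gene lay between 2.25% for Pdk4 and 11.3% for Zbtb16; the effect of depth was not tested.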
